A study of Mus musculus with 10 samples.

Results

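Imprinted genes are transcribed mainly from 1 parental copy, and 45 of them, taken from 20 imprinted clusters of the mouse, were followed across bone marrow mesenchymal stromal cells, the adherent marrow cells that can form bone and fat. A gene was measured by probe sets that carry its symbol and no other, and where several exist by the one with the highest mean over all arrays. By that rule 38 of the 45 genes were measured, each by 1 probe set, among 19938 genes named on the array. Snrpn, Ube3a and Gnas lay only on probe sets shared with another symbol, and H19, Kcnq1ot1, Slc22a3 and Zrsr1 were not analysed here. Donors were C57BL/6J mice, an inbred strain, all female and 6 to 8 weeks old, and the cells were used untreated at passage 16 or 17 in a murine stromal cell medium with antibiotics. The groups are 5 independent preparations, MSC I, MSC II, MSC III, MSC IV and MSC V, with 2 arrays each, and no preparation is a control. Total RNA was read on a whole-transcript array, and values are RMA log2 levels, so that 1 unit is a fold of 2.

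In an imprinted cluster, DNA methylation laid down in the egg or the sperm marks 1 parental copy of a control region, and the mark decides which copy of each nearby gene is active. Genes active from the paternal copy include several growth-promoting genes, and genes active from the maternal copy include several growth restraints such as Cdkn1c and Grb10. In stromal cells imprinted genes are known for their links to the balance of growth, quiescence and fat or bone differentiation. An array reads both copies of a gene together and the strain is inbred, so parental copy below is the copy known to be active in mouse and was not measured. Gatm, Osbpl5, Tssc4, Cd81, Copg2 and Ppp1r9a, counted as maternal, are imprinted mainly in placenta or certain tissues. Whether stromal cells express them from 1 copy is not known from these data. Each value averages all cells on an array, so fewer cells of a type and less RNA per cell cannot be told apart. Detection calls were not used here: a low level does not show that a transcript was absent.

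Array medians lay between 6.45 and 6.63 log2. A gene was tested where at least 2 arrays lay above 6.55 log2, the median of the whole table, which left 10971 genes. Of the 38 measured imprinted genes 23 were tested, and the levels of the other 15 lay between 4.60 and 6.49 on every array. Peg3 was tested through MSC III alone, and Cdkn1c through both MSC I arrays and MSC IV replicate 2. The labels do not say whether the arrays of a preparation came from separate cultures, so the spread behind the p-values is that of these arrays and may be technical. Of 20 stromal marker genes 19 were measured and all 19 tested, with array means of the list between 9.57 and 10.08. Among preparations 11 of them differed (57.9%, beside 29.1% of all tested genes). Vim, an intermediate filament of mesenchymal cells, read 13.35 to 13.75, Col1a1, the main collagen of bone, 10.71 to 12.20, and Prrx1, a mesenchymal transcription factor, 11.95 to 12.63. Ptprc, the pan-leukocyte antigen, read 5.11 to 5.25 and Pecam1, of endothelium, 4.82 to 5.05. Among 15 macrophage and leukocyte genes 2 were tested, and the mean of the list over an array lay between 5.17 and 5.49, highest in MSC V at 5.43 and 5.49. Cd68, a lysosomal protein of macrophages, was higher in MSC V than in the other four by 1.60 ± 0.13 (adjusted p = 0.000775).

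Most tested imprinted genes differed among the preparations. By the moderated F statistic of limma, adjusted by Benjamini-Hochberg over all tested genes, 15 of the 23 passed an adjusted p under 0.05 with preparation means at least 1 log2 apart (65.2%). Among all tested genes 29.1% passed. Other lists also lay above that share: 12 of 17 proliferation genes (70.6%), 6 of 9 osteoblast genes (66.7%), 11 of 19 stromal genes (57.9%) and all 12 adipocyte genes. Some of these were tested through 1 preparation alone, as given below. Of the factors that set or keep imprints 8 of 28 passed (28.6%). A high share was thus not particular to imprinted genes. Of the imprinted genes listed as paternal 10 of 12 differed, and of those listed as maternal 5 of 11. Peg3, in the paternal count, passed the filter only where it was high and had to differ. Cdkn1c, in the maternal count, reached the filter only with the MSC I arrays, where it was high. Gatm, also in the maternal count, reached it only through MSC III, MSC IV and MSC V, where it was high. The median range of the 5 preparation means was 2.20 log2 for the tested paternal genes, 0.96 for the maternal ones and 0.75 over all tested genes. Non-imprinted genes that flank the clusters in the reference gene order gave a count near that of all genes, 21 of 75 tested (28.0%), with a median range of 0.71. The difference between paternal and maternal genes was not tested, since genes are not replicates. Several of the maternal genes, as named above, are imprinted mainly in other tissues.

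**Figure D1:**
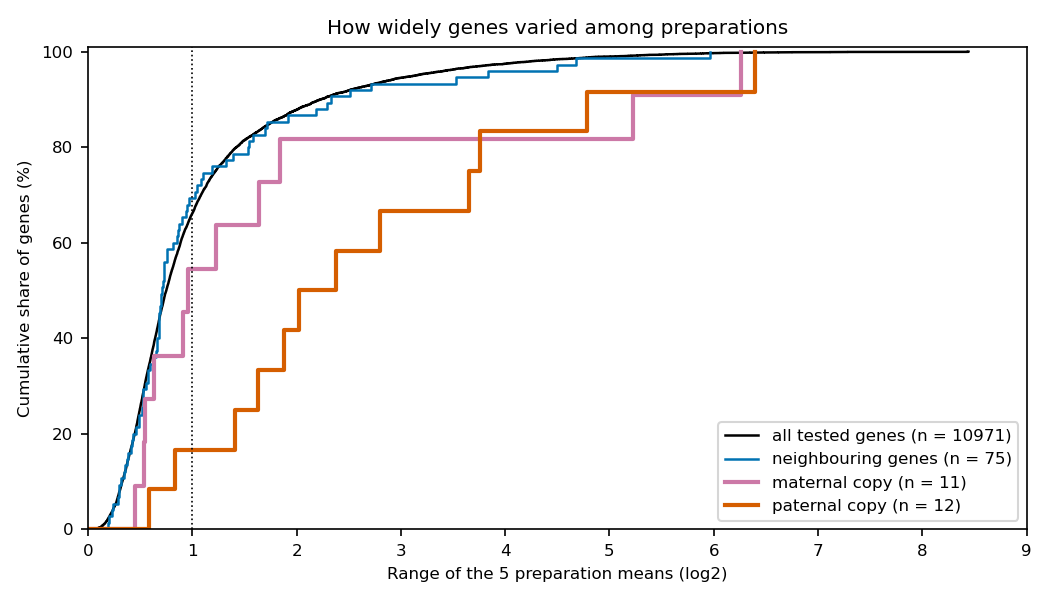
The horizontal axis is the range of the 5 preparation means of a gene in log2 units, and the vertical axis is the cumulative share of genes in percent. Each line is a group of genes, and the dotted line marks 1 log2, the least range that was called. The paternal line lies to the right of that of all tested genes, with medians of 2.20 and 0.75.

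Slc38a4, a paternally expressed amino acid transporter, and Grb10, a maternally expressed adaptor that restrains growth factor receptor signalling, had wider ranges than 99.8% of tested genes. Asb4, Mest, Peg10 and Dio3 had ranges at or above the percentile of 96.7 among tested genes. The low ends of Slc38a4, Grb10, Asb4 and Dio3 lay under the filter level, so their ranks are those of measured levels only. Peg3 stood at 93.5, but it was tested through MSC III alone, where it was high, so its rank shows nothing further. Among the 15 genes that differed, the lowest preparation mean was that of MSC IV for 7, of MSC III for 4, of MSC I for 3 and of MSC V for 1. For Peg3, Slc38a4, Grb10, Gatm, Cdkn1c and Dio3 the lowest mean and the next both lay under the filter level. That pair was not called in any of them, so their lowest preparation is not fixed. The highest means were spread more evenly: MSC I and MSC II held 4 each, MSC III 3, and MSC IV and MSC V 2 each. No preparation was therefore high for most of them.

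MSC IV had low levels of many paternally expressed genes. Against the mean of the other four preparations, 7 of the 12 tested paternal genes were lower in MSC IV by at least 1 log2 in limma's moderated test: Dlk1, Dio3, Mest, Peg10, Airn, Plagl1 and Impact. These come from 6 clusters. Of all tested genes 7.70% were lower in MSC IV. The paternal gene Slc38a4 was higher, and 11 of the 12 lay below zero with a median difference of -1.23, beside 0.01 over all tested genes. Peg3 is among the 11, and its sign follows from the high MSC III arrays through which it was tested. None of the 11 tested maternal genes was lower in MSC IV by this rule, their median was -0.06, and Grb10 alone was higher (of all tested genes 3.29% were). MSC IV had the lowest mean of the 5 preparations for 8 of the 12 paternal genes, for 2 of the 11 maternal genes and for 24.1% of all tested genes. Without MSC IV replicate 1 the count of lower imprinted genes was 5, and without MSC IV replicate 2 it was 4.

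**Figure D2:**
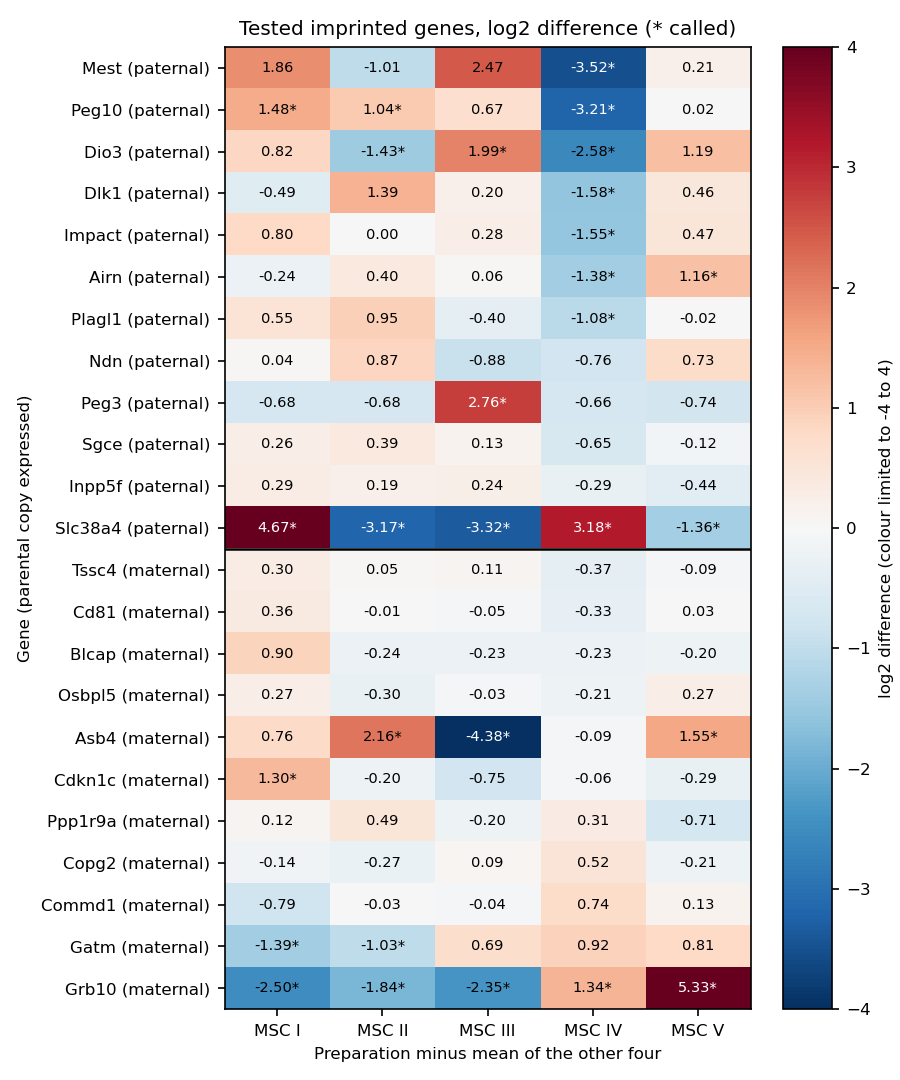
Rows are the 23 tested imprinted genes, paternal and maternal ones apart, and columns are the 5 preparations; colour is the difference from the mean of the other four in log2 units, limited to 4 either way, and an asterisk marks a called difference. The MSC IV column is below zero for 11 of 12 paternal genes and for 6 of 11 maternal genes.

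Markers of cell state also differed in MSC IV. All 17 tested proliferation genes lay below zero in MSC IV, with a median of -1.53, and 8 were called lower, beside 7.70% of all tested genes. Over that list the array mean was 8.93 and 9.66 in MSC IV, from 9.21 to 10.15 in MSC II, and from 10.31 to 11.36 in MSC I, MSC III and MSC V. Of 9 tested osteoblast genes 6 were higher in MSC IV, beside 3.29% of all tested genes. The array mean of that list was 10.44 and 10.55 in MSC IV, beside 5.89 to 8.37 in the other preparations. Of 12 adipocyte genes 6 were called lower in MSC IV (7.70% of all tested genes), with a median of -1.27. MSC V was alike with 5 (1.44% of all tested genes) and -1.25. Only MSC I stood apart in array means of the adipocyte list, at 10.28 and 10.93 beside 6.63 to 7.34 elsewhere. Of the 19 stromal genes 5 were lower and 2 higher in MSC IV, beside 7.70% and 3.29% of all tested genes. Panx3 of the osteoblast list was tested through MSC IV alone, and Adipoq, Cd36, Plin1 and Cidec of the adipocyte list through MSC I alone, which sets their sign. The part of these lists in the levels of imprinted genes was not tested.

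The sequence before the start of these genes is shown because imprinted marks are kept by factors that bind DNA. Among them is ZFP57, a zinc finger protein that binds the methylated hexamer TGCCGC. The windows were taken before annotated starts and were not chosen as control regions of the clusters. The 250 bases before the annotated transcript start are printed 5′ to 3′ on the gene's strand, from RefSeq on GRCm38.p6, with the hexamer or its reverse complement GCGGCA in capitals. Windows are printed for 5 of the 7 genes lower in MSC IV, and none was examined here for Peg10 or Impact. Mest is at chr6:30737803-30738052, Plagl1 at chr10:13090582-13090831, Dlk1 at chr12:109452573-109452822, Dio3 at chr12:110278980-110279229 and Airn at chr17:12741061-12741310, all on the plus strand.
Mest: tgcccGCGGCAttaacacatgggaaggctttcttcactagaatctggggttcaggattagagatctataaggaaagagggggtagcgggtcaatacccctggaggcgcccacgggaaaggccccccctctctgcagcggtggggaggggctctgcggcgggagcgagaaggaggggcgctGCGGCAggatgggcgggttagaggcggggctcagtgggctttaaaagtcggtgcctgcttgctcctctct
Plagl1: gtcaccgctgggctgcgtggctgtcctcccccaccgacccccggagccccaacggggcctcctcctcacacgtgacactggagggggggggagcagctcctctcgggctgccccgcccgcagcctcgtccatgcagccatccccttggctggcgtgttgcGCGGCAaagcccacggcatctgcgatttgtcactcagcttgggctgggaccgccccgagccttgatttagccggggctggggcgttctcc
Dlk1: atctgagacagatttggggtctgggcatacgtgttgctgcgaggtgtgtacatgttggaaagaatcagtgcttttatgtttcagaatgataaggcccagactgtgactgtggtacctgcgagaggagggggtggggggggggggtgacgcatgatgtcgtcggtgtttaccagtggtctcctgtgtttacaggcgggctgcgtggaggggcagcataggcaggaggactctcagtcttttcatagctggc
Dio3: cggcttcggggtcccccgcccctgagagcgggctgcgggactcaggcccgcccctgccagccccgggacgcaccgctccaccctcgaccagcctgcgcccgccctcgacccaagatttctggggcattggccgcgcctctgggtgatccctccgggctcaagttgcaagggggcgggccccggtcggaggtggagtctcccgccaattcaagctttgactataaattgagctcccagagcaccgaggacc
Airn: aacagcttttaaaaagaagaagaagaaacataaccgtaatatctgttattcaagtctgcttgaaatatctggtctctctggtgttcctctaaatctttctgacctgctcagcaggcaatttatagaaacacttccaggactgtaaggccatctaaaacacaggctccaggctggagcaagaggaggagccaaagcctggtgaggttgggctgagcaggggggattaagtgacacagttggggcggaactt
Mest held 2 matches and 14 CpGs, and Plagl1 held 1 match and 19 CpGs. The table holds 2 further Mest windows: one at chr6:30733256-30733505, from another annotated start, held no match and 7 CpGs, and the other overlaps the printed window and held the same matches. Dio3 held 21 CpGs, Dlk1 8 and Airn 2, and none of these 3 windows held the hexamer. Among all 32851 windows of this length 8.68% held it and the median was 6 CpGs. Among the 58 windows examined here, from 39 listed genes, the share was 17.2% and the median 11.5 CpGs. Peg10 and Impact are not in that count. A match describes letters in the window and is not evidence of binding.

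In the Dlk1-Dio3 cluster both tested genes are paternal and both were low in MSC IV. Dlk1 encodes a membrane protein that holds back fat cell differentiation. It read 7.27 and 6.46 in MSC I, 7.51 and 9.23 in MSC II, 7.43 and 7.41 in MSC III, 6.21 and 5.78 in MSC IV, and 7.85 and 7.40 in MSC V. The MSC IV arrays were the lowest of the 10, and the arrays of MSC II lay far apart. Both MSC IV arrays lay under the filter level, so differences from them are those of measured levels only. Dlk1 differed in MSC IV from the other four by -1.58 ± 0.41 (adjusted p = 0.0238), and the call was lost without either MSC IV array (adjusted p = 0.0728 and 0.184). Its F test (range 2.37, adjusted p = 0.0391) failed without any 1 of the 8 arrays of MSC I, MSC III, MSC IV and MSC V (adjusted p = 0.0515 to 0.134).

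Dio3, the deiodinase that inactivates thyroid hormone, read 7.40 and 7.94 in MSC I, 5.90 and 5.84 in MSC II, 8.13 and 9.07 in MSC III, 5.63 and 4.27 in MSC IV, and 8.00 and 7.94 in MSC V. MSC II and MSC IV were low and did not overlap the other preparations. Their arrays lay under the filter level, so differences from them are those of measured levels only. The range of means was 3.65 (adjusted p = 0.00253), and the difference of MSC IV from the other four was -2.58 ± 0.36 (adjusted p = 0.00208), a call that held with each array left out. MSC II was also lower (-1.43 ± 0.36, adjusted p = 0.0311) and MSC III higher (1.99 ± 0.36, adjusted p = 0.0239). Those calls were weaker: without MSC II replicate 1 or 2 the first had an adjusted p of 0.126 or 0.164, and without MSC III replicate 1 or 2 the second had 0.0721 or 0.216. The maternal transcripts of the cluster were dim. Meg3, a long noncoding RNA, read 5.80 and 6.49 in MSC III and 4.60 to 5.55 elsewhere, and Rian and the paternal Rtl1 stayed at 4.88 to 5.19 on all arrays; none of the 3 was tested.

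The Peg10-Sgce cluster held genes of both parental copies that were low in different preparations. Peg10, a paternally expressed gene derived from a retrotransposon, read 12.66 and 12.47 in MSC I, 11.80 and 12.63 in MSC II, 11.66 and 12.18 in MSC III, 9.29 and 8.33 in MSC IV, and 11.49 and 11.30 in MSC V. The MSC IV arrays lay below all others, and next above them were those of MSC V. MSC IV differed from the other four by -3.21 ± 0.29 (adjusted p = 0.00035), and from each of the 4 singly, while no pair among the other preparations passed. MSC I and MSC II were called higher against the other four (1.48 and 1.04), and with MSC IV left out of the comparison these values fell to 0.72 (adjusted p = 0.0966) and 0.26 (adjusted p = 0.562).

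Sgce, the paternally expressed sarcoglycan gene beside Peg10, read 11.57 to 12.58 over all arrays, and its range of 0.83 (adjusted p = 0.0247) stayed under 1 log2. Asb4, a maternally expressed subunit of a ubiquitin ligase, read 9.92 and 9.54 in MSC I, 10.46 and 11.24 in MSC II, 5.72 and 5.53 in MSC III, 9.15 and 8.96 in MSC IV, and 10.37 and 10.35 in MSC V. MSC III stood alone below the filter level, where differences are those of measured levels only. Its difference from the other four was -4.38 ± 0.20 (adjusted p = 0.000121), and it differed from each of them singly with every array left out in turn. Asb4 in MSC IV was lower than in MSC II by 1.79 ± 0.25 (adjusted p = 0.00332), and did not pass against MSC I (adjusted p = 0.0582). Against MSC V the difference of MSC IV was -1.31 ± 0.25 (adjusted p = 0.0113), a call lost without MSC IV replicate 2 (adjusted p = 0.0708) or MSC V replicate 1 (adjusted p = 0.0553). The maternal gene Ppp1r9a, a neuronal actin-binding protein, read 6.03 to 7.52 with a range of 0.96 (adjusted p = 0.0369), and the calcitonin receptor Calcr stayed at 4.85 to 4.93. Thus within this cluster the preparation with the lowest Peg10 was not the one with the lowest Asb4.

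Mest, a paternally expressed enzyme of the hydrolase family linked to growth and to fat cell size, had the widest range among the genes lower in MSC IV. It read 12.28 and 10.19 in MSC I, 8.48 and 9.40 in MSC II, 11.73 and 11.72 in MSC III, 7.43 and 6.44 in MSC IV, and 8.84 and 11.01 in MSC V. MSC IV lay below every other array, and the arrays of MSC I and of MSC V were far apart. The range was 4.79 (adjusted p = 0.0131) and MSC IV differed from the other four by -3.52 ± 0.67 (adjusted p = 0.0072). Without MSC IV replicate 2 these became 4.29 (adjusted p = 0.0578) and -3.03 (adjusted p = 0.0898). Copg2, the maternally expressed coat protein gene that overlaps the Mest locus, read 11.41 to 12.10, and its range of 0.63 (adjusted p = 0.0153) was under 1 log2.

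Airn, the paternally expressed noncoding RNA whose transcription silences the paternal Igf2r, was low in MSC IV and high in MSC V. It read 9.82 and 9.08 in MSC I, 9.72 and 10.20 in MSC II, 9.59 and 9.80 in MSC III, 8.53 and 8.56 in MSC IV, and 10.56 and 10.58 in MSC V. Neither preparation overlapped the remaining ones. MSC IV differed from the other four by -1.38 ± 0.20 (adjusted p = 0.00229) and MSC V by 1.16 ± 0.20 (adjusted p = 0.0125). The MSC V call was lost without either of its arrays (adjusted p = 0.0933 and 0.0768), and the value was 0.87 with MSC IV left out of the comparison. Igf2r, the receptor that removes IGF2 and is expressed from the maternal copy, is outside the 45 genes and was singled out after its values were seen. It read 8.97 and 9.11 in MSC V, below the 9.85 to 10.62 of all other arrays, a difference of -1.28 ± 0.10 (adjusted p = 0.000675). In MSC IV Igf2r read 10.62 and 10.59, or 0.68 above the other four (adjusted p = 0.00266), which is under 1 log2. The preparation with the highest Airn thus had the lowest Igf2r, and the one with the lowest Airn had the highest; no correlation is given over 5 preparations.

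Plagl1, a paternally expressed zinc finger factor that slows the cell cycle, read 8.07 and 7.71 in MSC I, 8.26 and 8.16 in MSC II, 7.17 and 7.07 in MSC III, 6.49 and 6.67 in MSC IV, and 7.24 and 7.61 in MSC V. MSC II was the highest and MSC IV the lowest, without overlap. The range was 1.63 (adjusted p = 0.00165). MSC IV differed from the other four by -1.08 ± 0.14 (adjusted p = 0.00133), and without MSC IV replicate 1 the value was -0.99, just under 1 log2.

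Impact, a paternally expressed inhibitor of the stress kinase GCN2, read 11.55 and 11.62 in MSC I, 11.11 and 10.79 in MSC II, 11.21 and 11.12 in MSC III, 10.03 and 9.38 in MSC IV, and 10.83 and 11.82 in MSC V. The arrays of MSC IV were below all others, and those of MSC V were far apart. MSC IV differed from the other four by -1.55 ± 0.26 (adjusted p = 0.00426), and by -1.23 without MSC IV replicate 2 (adjusted p = 0.0619). The F test of Impact (range 1.88, adjusted p = 0.0138) also failed without that array (adjusted p = 0.0804).

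Slc38a4 was high in MSC I and MSC IV. Its range and that of Grb10 were the widest measured among the 38 genes, and their order is not fixed, since both have low ends under the filter level. This transporter read 12.01 and 11.92 in MSC I, 5.66 and 5.72 in MSC II, 5.29 and 5.86 in MSC III, 10.76 and 10.78 in MSC IV, and 7.42 and 6.86 in MSC V. Levels ran from MSC I through MSC IV and MSC V down to MSC II and MSC III, and of these neighbours MSC II and MSC III overlapped. The range was 6.39 log2 (adjusted p = 4.93e-06), with MSC II and MSC III under the filter level, where no fold is given and the range is that of measured levels only. MSC I was above MSC IV by 1.19 ± 0.23 (adjusted p = 0.00487), and MSC IV above MSC V by 3.64 ± 0.23 (adjusted p = 0.000129). Both calls held with each array left out. MSC II and MSC III lay below MSC V on every array, and the size of that gap cannot be read so near the low end of the scale.

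Grb10 was high in MSC V, intermediate in MSC IV and low in the remaining preparations. It read 4.88 and 5.22 in MSC I, 5.21 and 5.96 in MSC II, 5.03 and 5.31 in MSC III, 8.63 and 7.62 in MSC IV, and 11.50 and 11.14 in MSC V. MSC I, MSC II and MSC III overlapped at levels under the filter, and no pair among them passed. The range of measured levels was 6.26 (adjusted p = 5.52e-05). MSC IV differed from MSC V by -3.19 ± 0.37 (adjusted p = 0.00147), a call that held with each array left out. Both MSC IV arrays lay above every array of the low preparations, by an amount that cannot be read so near the low end of the scale. Against the mean of the other four MSC V stood at 5.33 ± 0.29 (adjusted p = 0.000127) and MSC IV at 1.34 ± 0.29 (adjusted p = 0.0114); the latter fell to 0.84 without MSC IV replicate 1 (adjusted p = 0.0923).

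**Figure D3:**
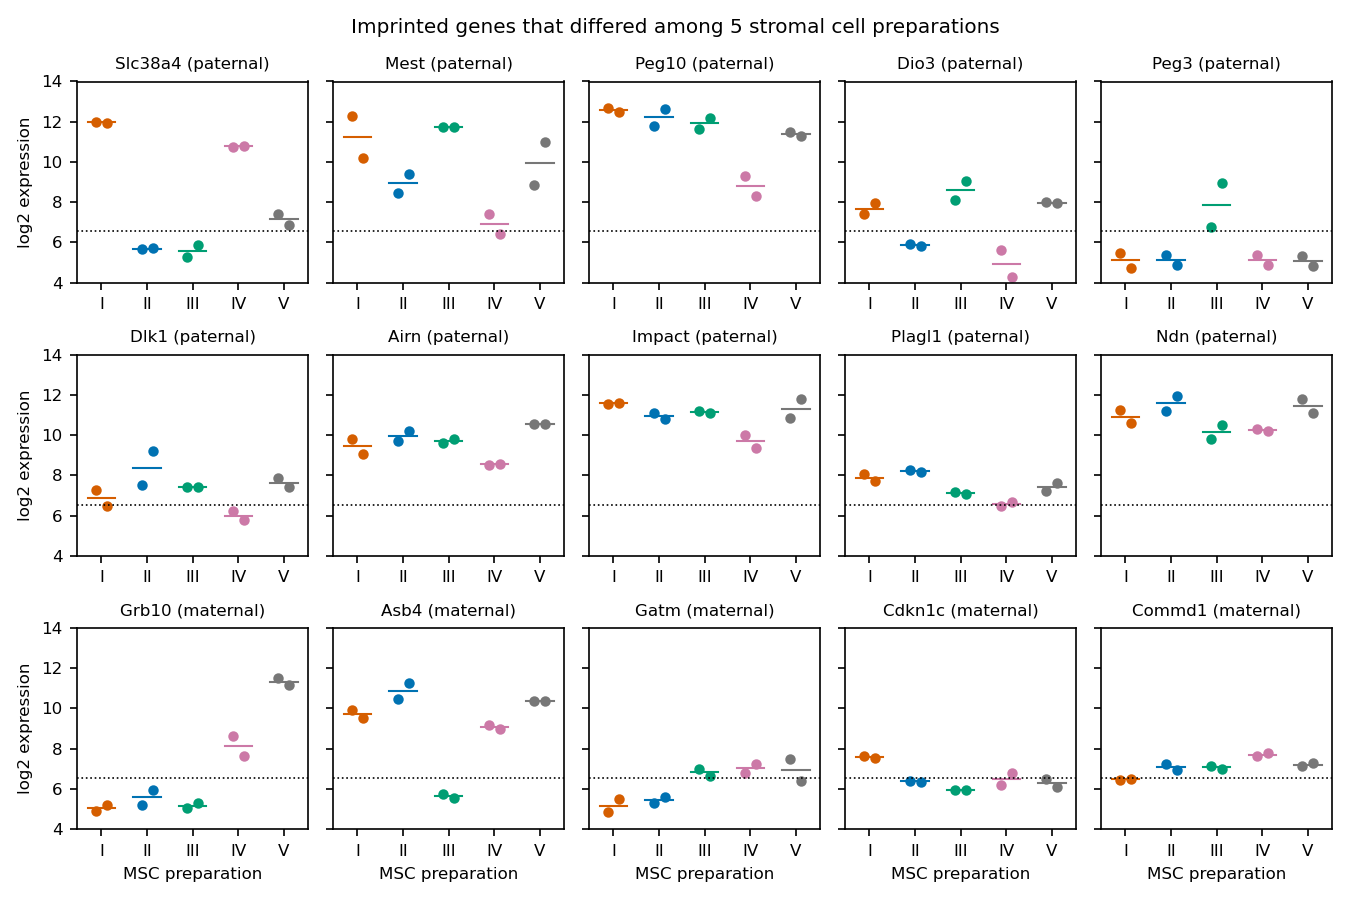
Each panel is 1 of the 15 imprinted genes that differed among the preparations, with log2 expression on the vertical axis and MSC I to MSC V on the horizontal axis. Points are single arrays, bars their means, and the dotted line is the filter level of 6.55. Slc38a4 reaches from 5.29 to 12.01 and Grb10 from 4.88 to 11.50, and their high preparations are not the same.

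Cdkn1c, the maternally expressed cell cycle inhibitor p57 of the Kcnq1 cluster, was high in MSC I. It read 7.64 and 7.52 in MSC I, 6.40 and 6.36 in MSC II, 5.95 and 5.92 in MSC III, 6.20 and 6.79 in MSC IV, and 6.51 and 6.11 in MSC V. Both MSC I arrays lay above all others. MSC I exceeded the mean of the other four by 1.30 ± 0.17 (adjusted p = 0.000892), and it exceeded each of them singly by 1.09 to 1.64. Against MSC IV the difference was 0.79 without MSC IV replicate 1 (adjusted p = 0.0213). Only the MSC I arrays and MSC IV replicate 2 lay above the filter level. The gene was thus tested through MSC I, where it was high, which sets the direction of its call. Cdkn1c was not tested where the filter was set on the mean of all arrays. Proliferation genes were also high in MSC I, where 4 of 17 were called higher, beside 7.73% of all tested genes. Of the adipocyte genes 11 of 12 were called higher there, and 4 of the list were tested through MSC I alone. The array means of that list were 10.28 and 10.93 in MSC I, beside 6.63 to 7.34 elsewhere. The part of these lists in the level of Cdkn1c was not tested.

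Other genes of the Kcnq1 cluster did not pass. The membrane protein Cd81 read 12.53 to 13.20 (range 0.55, adjusted p = 0.076), the sterol-binding protein gene Osbpl5 8.58 to 9.34 (0.45, adjusted p = 0.0854) and Tssc4 6.44 to 7.06 (0.53, adjusted p = 0.0785). Phlda2, a restraint on placental growth, read 4.94 to 6.09, Slc22a18 5.16 to 5.53 and the placental factor Ascl2 4.73 to 4.94, and these 3 were not tested. Cdkn1c was thus the single member of its cluster to be called, and it was tested through the preparation where it was high.

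Peg3, a paternally expressed zinc finger gene found in stem and progenitor cells, rose above the filter only in MSC III. It read 6.78 and 8.96 in MSC III and 4.75 to 5.49 on the 8 other arrays. The arrays of MSC III were far apart, though both lay above all others. The difference of MSC III from the other four was 2.76 ± 0.50. Because the gene passed the filter through MSC III alone, it had to be higher there once tested, and without either MSC III array it was not tested. Usp29, which is paternally expressed from the same region, read 5.07 to 5.39, and the maternal Zim1 read 4.83 to 5.04.

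Ndn, encoding necdin, a paternally expressed growth suppressor of the Snrpn-Ube3a cluster, read 11.23 and 10.59 in MSC I, 11.18 and 11.97 in MSC II, 9.82 and 10.51 in MSC III, 10.33 and 10.20 in MSC IV, and 11.81 and 11.11 in MSC V. MSC III and MSC IV were low and overlapped each other, and no preparation passed against the other four. The F test passed with a range of 1.41 (adjusted p = 0.0361). It failed without MSC II replicate 2, MSC III replicate 1, either MSC IV array or MSC V replicate 1 (adjusted p = 0.0556 to 0.086). Magel2, a ubiquitin ligase partner, at 4.85 to 5.02 and Mkrn3, which restrains puberty onset, at 5.61 to 6.17 were not tested.

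Gatm, the creatine synthesis enzyme, listed here as maternal, divided the preparations into MSC I and MSC II at low levels and the remaining ones above. It read 4.85 and 5.49 in MSC I, 5.31 and 5.61 in MSC II, 7.01 and 6.66 in MSC III, 6.78 and 7.25 in MSC IV, and 7.46 and 6.40 in MSC V, with no overlap between these sets. The MSC I and MSC II arrays and MSC V replicate 2 lay under the filter level, so the range of 1.85 (adjusted p = 0.0101) is that of measured levels only. Gatm was thus tested through preparations where it was high, which sets the direction of the MSC I and MSC II calls. It was not tested where the filter was set on the mean of all arrays. MSC I differed from the other four by -1.39 ± 0.29 (adjusted p = 0.00785), and dropping MSC I replicate 1 ended that call (adjusted p = 0.0878). MSC II differed by -1.03 ± 0.29 (adjusted p = 0.0457), and this value passed in few of the alternatives tried.

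Commd1, a copper transport regulator listed here as maternal, read 6.44 and 6.50 in MSC I, 7.22 and 6.95 in MSC II, 7.13 and 7.01 in MSC III, 7.61 and 7.78 in MSC IV, and 7.13 and 7.28 in MSC V. MSC I was lowest and MSC IV highest, and the other preparations overlapped between them. The range of 1.23 (adjusted p = 0.0032) came from MSC IV against MSC I (adjusted p = 0.00046), the single pair called. Blcap, also listed as maternal, read 9.23 and 9.35 in MSC I and 8.18 to 8.58 elsewhere, a range of 0.91 (adjusted p = 0.0128) that stayed under 1 log2. Its paternal partner Nnat, a membrane proteolipid, read 5.41 to 6.03. Inpp5f, a phosphoinositide phosphatase, read 7.26 to 8.03 (range 0.59, adjusted p = 0.0181). Nap1l5, the signalling factor Rasgrf1 and Zdbf2, all paternal, stayed between 4.92 and 5.37 on every array.

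Pair by pair, the imprinted genes were called most often where MSC IV was involved. Between MSC IV and MSC I 10 of the 23 genes were called (43.5%, beside 20.3% of all tested genes), between MSC IV and MSC II 10 (43.5%, beside 9.06%), between MSC IV and MSC III 9 (39.1%, beside 7.99%) and between MSC IV and MSC V 8 (34.8%, beside 10.9%). Pairs without MSC IV had 3 to 5 calls. These were MSC I with MSC II at 4 (17.4%, beside 14.9% of all tested genes), with MSC III at 5 (21.7%, beside 11.3%) and with MSC V at 5 (21.7%, beside 10.5%). MSC II had 4 calls with MSC III (3.02%) and 4 with MSC V (5.56%), and MSC III had 3 with MSC V (2.07%). The count of MSC I with MSC II was thus near the share of all genes, and every other pair lay above its share, with or without MSC IV. Over all pairs 62 differences were called, and the pairs share arrays with one another.

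Set against the mean of the other four, the remaining preparations had fewer calls than MSC IV. MSC I had 3 genes higher and 2 lower, where 7.73% and 5.22% of all tested genes were. MSC II had 2 higher and 4 lower (2.45% and 2.69%). MSC III had 2 higher and 3 lower (1.31% and 0.957%), and MSC V 3 higher and 1 lower (2.11% and 1.44%). The genes lower in MSC III were Asb4, Slc38a4 and Grb10, from 3 clusters and both parental copies. Those higher in MSC V were Airn, Asb4 and Grb10. Not all of these levels were particular to 1 preparation. Asb4 had a mean of 10.36 in MSC V and 10.85 in MSC II, and MSC V did not pass against MSC I or MSC II. Slc38a4 in MSC III overlapped MSC II, and Grb10 in MSC III overlapped MSC I and MSC II.

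Imprinted genes outside the 45, from a separate list of 51, gave 16 calls among 27 tested (59.3%, beside 29.1% of all tested genes). In MSC IV 5 of the 27 were lower and none higher, where 7.70% and 3.29% of all tested genes were. In MSC I 9 were higher and 1 lower, where 7.73% and 5.22% of all tested genes were. This list was not divided by parental copy, so it does not bear on paternal against maternal genes. Smoc1, a matricellular calcium-binding protein, had the next widest range after the growth factor Igf2. It read 9.93 and 10.29 in MSC I, 6.06 and 6.74 in MSC II, 10.39 and 10.64 in MSC III, 8.12 and 7.41 in MSC IV, and 9.93 and 9.36 in MSC V. MSC II lay below all other preparations (-3.11 ± 0.26, adjusted p = 0.000504). Igf2 itself, paternally expressed and beside the H19 gene, read 11.83 and 12.13 in MSC I, 7.75 and 7.77 in MSC II, 10.26 and 8.95 in MSC III, 6.25 and 6.91 in MSC IV, and 5.91 and 6.25 in MSC V. MSC IV and MSC V overlapped at the low end. The decorin gene Dcn, a matrix proteoglycan of stromal cells, read 6.86 and 7.21 in MSC IV beside 7.60 to 10.71 elsewhere (-2.24 ± 0.32, adjusted p = 0.00229).

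Among factors that set or keep imprints, 8 of 28 tested genes differed (28.6%), close to the 29.1% of all tested genes. Zfp57, whose protein binds the hexamer printed above and keeps methylation at imprinted control regions, read 11.43 and 11.71 in MSC I, 11.37 and 11.75 in MSC II, 11.54 and 11.53 in MSC III, 10.32 and 9.47 in MSC IV, and 11.22 and 11.41 in MSC V. Both MSC IV arrays were below all others, and the difference was -1.60 ± 0.22 (adjusted p = 0.00172), and the call held with each array left out. Its partner Trim28 read 11.04 to 11.59 (range 0.49, adjusted p = 0.0672). Dnmt1, the methyltransferase that copies methylation at replication, differed in MSC IV by -1.44 ± 0.27 (adjusted p = 0.00633), and its cofactor Uhrf1 by -1.32 ± 0.33 (adjusted p = 0.0206). Without MSC IV replicate 2 neither passed (adjusted p = 0.0802 and 0.208). Both are also genes of dividing cells, and the proliferation genes were low in the same arrays, as given above; their part in these values was not tested.

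Nlrp2, a maternal-effect gene needed in the egg for imprint upkeep, read 9.45 and 8.33 in MSC III and 4.66 to 5.23 on all other arrays. Like Peg3 it passed the filter through MSC III alone and so had to be higher there once tested, and it is 1 of the 8 regulators counted above. The insulator protein Ctcf read 9.56 to 9.93 on all arrays (range 0.24, adjusted p = 0.329).

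**Figure D4:**
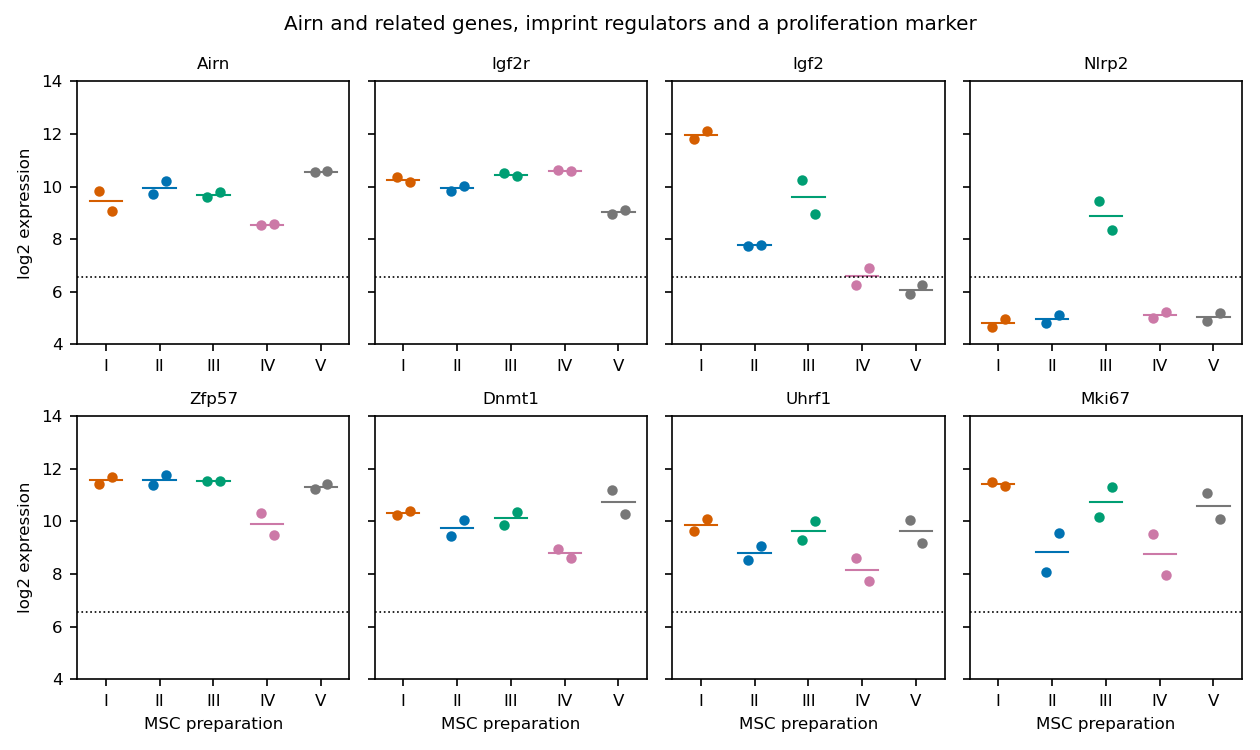
Each panel is 1 gene, with log2 expression on the vertical axis, MSC I to MSC V on the horizontal axis, points for single arrays, bars for their means and a dotted line at 6.55. Airn and Igf2r lie at opposite ends in MSC V, and Zfp57 is at 10.32 and 9.47 in MSC IV while every other array reads at least 11.22.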

How the data were processed

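Bone marrow stromal cells from 5 preparations were read on 10 arrays, grouped by sample title. The authors deposited log2 expression values of 35399 probe sets, and RMA and Partek, with no version, are named in the submitters' processing notes. The RMA method subtracts background, normalises arrays by quantiles and summarises probes, which compresses differences between low levels. Gene names came from the platform's probe table: 21789 probe sets had 1 symbol, 1621 several and 11989 none, and 21698 matched a gene of the GRCm38.p6 gene table. Genes whose level was above 6.55 log2 on at least 2 arrays were tested.

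A means model was fitted with limma 3.58.1 (lmFit, eBayes) under R 4.3.3 (residual df 5, median residual SD 0.18 log2), and tables were made in Python 3.11.15. The F test, each preparation against the mean of the other four and the 10 pairs were adjusted by Benjamini-Hochberg over 10971 genes. A call needed an adjusted p under 0.05 and 1 log2. Errors after a difference are standard errors of the fit. Tests were two-sided, and scripts were tested on simulated data. The number of arrays limits the precision.

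The members, their parental copies, the gene lists and the tests were chosen with earlier results of these data known. Every member could be named, and of the other imprinted genes and the regulators the called genes with the 5 widest ranges, not all of which are named. Igf2r, Trim28 and Ctcf fall outside that rule and were chosen after their values were seen. Alternatives were other low-value filters, averaging all probe sets of a gene, median centring, a further quantile normalisation, trend and robust eBayes, a replicate block, other references and each array left out. Replicate numbers did not pair the arrays: deviations correlated above 0.1 in 1 of 10 pairs of preparations.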

Additional observations from a re-analysis of the deposited data

How the results depend on the processing

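No member's difference reversed under any alternative run. Over the called imprinted members, wherever a setting still tested them, 239 of 258 recomputed ranges kept their call and 19 lost it, and 495 of 551 recomputed differences from the other four kept it and 56 lost it. With the filter at the 75th percentile (9.22 log2), 13 imprinted genes were tested: 8 differed among preparations instead of 15, 3 were called in MSC I instead of 5, 3 in MSC III instead of 5, and 39 pair differences instead of 62. With the filter on the mean over all arrays MSC I had 3 calls, and without a filter MSC II had 3 instead of 6, because more genes share the adjustment. With the replicate block, 13 differed, 3 were called in MSC II and 3 in MSC III, and 53 pair differences passed; over all genes the F calls went from 3192 to 2724. The replicate numbers did not pair the arrays, with correlations of -0.555 to 0.203. With MSC IV left out of the reference MSC V had 2 calls instead of 4. Leaving out 1 array gave 11 to 16 genes that differed, 3 to 6 calls in MSC I, 3 to 6 in MSC II, 2 to 5 in MSC III, 6 to 10 in MSC IV, 3 to 5 in MSC V, and 49 to 62 pair differences. The lowest counts in MSC III came without either of its arrays, when Peg3 was not tested and Dio3 and Grb10 no longer passed there, and the 6 in MSC IV without either of its own. Where 1 array was left in a preparation, its spread was taken from the other preparations. Median centring moved the median difference of a preparation by at most 0.0845 log2. Dlk1 and Ndn also failed the F test without a filter (adjusted p = 0.0778 and 0.069) and with the block (adjusted p = 0.0698 and 0.0669). Levels under 6.55 log2 limit what can be said of 15 members.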

Other observations

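Non-imprinted genes that flank the clusters also held wide differences at some loci, with no pattern of parental copy to follow. Ctsh, a lysosomal protease gene next to Rasgrf1, had a range of 5.96 log2 from MSC I down to MSC IV (adjusted p = 0.000113), while Rasgrf1 stayed dim. Near Grb10, the growth factor receptor gene Egfr (range 4.49, adjusted p = 0.000403) read 5.81 and 5.70 in MSC IV and 8.02 to 10.38 elsewhere. Lsp1, an actin-binding protein gene beside the H19-Igf2 region, was highest in MSC V and lowest in MSC I (range 3.84, adjusted p = 1.08e-05). Beside Peg10, the interferon-induced Samd9l had a range of 3.53 log2 (adjusted p = 0.000149) from its high level in MSC I, while MSC II and MSC IV overlapped at the low end. The kinase gene Pdk4, also beside Peg10, was lowest in MSC IV (range 1.54, adjusted p = 0.00362). Beside Slc38a4, the related transporter gene Slc38a1 was highest in MSC I as well (range 2.18, adjusted p = 0.0424). None of the tested flanking genes was called at the Peg3, Mest, Nnat-Blcap, Gnas and Airn-Igf2r clusters. These genes were picked after their values were seen.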
